A study of Mus musculus with 20 samples.

Results

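The Myc network is the set of transcription factors that meet at the partner protein Max, and the members described here were Myc, Mycn, Max, Mga, Mxd4 and Mnt. Their m6A peaks were taken as every row named after one of these 6 genes in the authors' deposited tables of m6A peaks, 1 for CD4 and CD8 double-positive (DP) thymocytes and 1 for invariant natural killer T (iNKT) cells. The rule gave 17 of 13450 DP peaks and 15 of 12542 iNKT peaks. Myc, Max, Mga and Mnt had peaks in both tables, Mycn had rows for iNKT cells alone, and no row carried the name Mxd4. Names and positions disagreed for some rows. The 3 rows named Mycn lay outside that gene, and peaks over the end of Mxd4 carried the name of its neighbour Haus3.

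Each table compares cells sorted from thymi of C57BL/6 mice aged 6 to 8 weeks, either wild-type (WT) or Mettl3fl/flCD4-cre. In the latter, floxed Mettl3, the gene of the methyltransferase that writes m6A, is removed by a Cre recombinase under Cd4 control, which acts from the DP stage onwards. The iNKT cells (7AAD-, CD1d tetramer positive, TCRβ+) gave 3 input and 3 m6A immunoprecipitate libraries per genotype, and the DP cells (7AAD-, CD1d tetramer negative, CD4+CD8+) gave 2 of each. Peaks named after 8 of 9 iNKT marker genes stood in the iNKT table, Zbtb16 and Tbx21 among them, against 4 in the DP table (Gata3, Il2rb, Cxcr6 and Cd69). Of 9 DP markers, 4 were named in each table, with Cd8a, Cd8b1 and Rag1 in both. Of 9 markers of B cells, myeloid cells and epithelium, 1 was named in the DP table and 2 in the iNKT table. The tables hold no value per library, so depth and the spread between replicates are unknown, and none of the differences below could be set against that spread. The 2 cell types may also differ in protocol, since the labels name both a standard and a low-input m6A method without assigning them.

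Myc and Mycn are basic helix-loop-helix leucine zipper proteins that bind DNA as dimers with Max and activate genes of growth, ribosome production and metabolism. Mxd4, Mnt and Mga also pair with Max and repress, Mxd4 and Mnt through Sin3 corepressors and Mga within a Polycomb complex. Myc is needed for the proliferation of thymocytes, including that of young iNKT cells, and its short-lived mRNA is a known target of m6A readers of the Igf2bp family.

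A peak has a fold enrichment, the linear ratio of immunoprecipitate over input, and a log2 fold change that sets the methylation of one genotype against the other. Which genotype comes first is not stated. Negative values were read as less methylation in Mettl3-deleted cells, the likely direction, because the deletion removes an m6A writer. Of all peaks, 68.6% were negative in iNKT cells and 49.7% in DP cells. In the authors' gene list for iNKT cells, all but 1 of the 5340 genes had a peak with a negative value. So did all but 1 of the 4337 in that for DP cells, and 0 genes with only positive values were listed. The lists thus follow the sign of the same peaks, and cannot show which genotype comes first. A peak passed at the authors' differential false discovery rate (FDR) of 0.05, and is called lower or higher by this reading of the sign. Positions are on mm10.

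In iNKT cells 4 member peaks were lower in Mettl3-deleted cells and 1 was higher in the authors' deposited table, while in DP cells none of 17 passed. The lower peaks were both peaks of Myc, 1 of Max and 1 of Mnt, and the higher peak was a second peak of Max. Among all iNKT peaks, 19.8% were lower and 5.84% higher. By class, 22.2% of 3' UTR peaks and 19.5% of exon peaks of the iNKT table were lower. The count of 4 of 15 thus stood near this background, as did 1 of 15 for higher peaks. Within their own genes the members had 12 iNKT peaks, with the same 4 lower. By gene, 3 of 5 had a lower peak, against 26.2% of all iNKT genes, which had 1.85 peaks on average. These 5 genes, Mycn among them, had more peaks each, 15 in all. Of iNKT genes with exactly 3 peaks, 43.6% had at least 1 lower peak. Among all DP peaks, 0.743% were lower and 0.483% higher, so a count of 0 among 17 was near the background too. By the authors' test, whose columns are those of the exomePeak package, no DP member peak reached an unadjusted p of 0.05, against 12.7% of all DP peaks. Among the iNKT member peaks 7 of 15 did, against 30.1% of all. Member peaks had a median log2 fold change, by the authors' deposited table, of 0.06 in DP cells (range -0.56 to 1.22) and -1.65 in iNKT cells (range -4.58 to 5.17). Over all peaks the medians were 0.00 and -0.98.

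**Figure D1:**
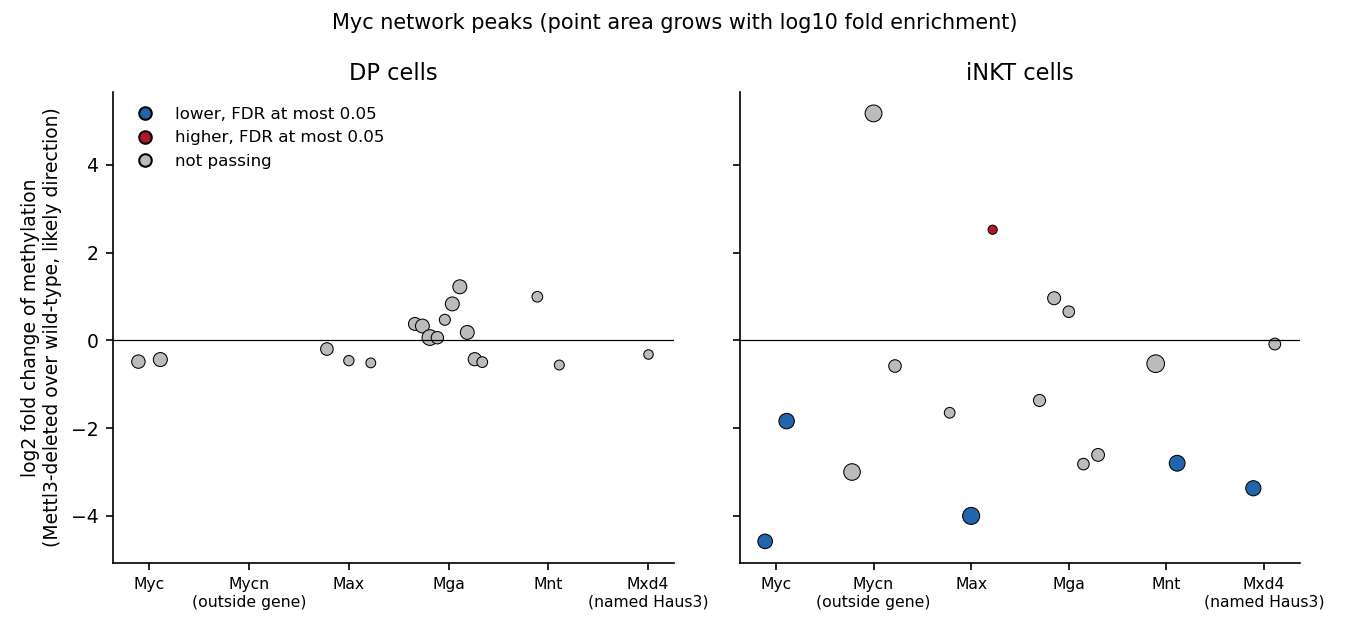
Log2 fold change of methylation (vertical axis, no unit) of each peak of the Myc network by gene in DP (left) and iNKT cells (right), 1 point per peak, coloured by the authors' call at an FDR of 0.05. DP points lie between -0.56 and 1.22 with none passing, and iNKT points spread from -4.58 to 5.17, with lower peaks in Myc, Max, Mnt and the Haus3-named peak over Mxd4.

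Myc, the activator of the network, had both of its iNKT peaks lower. Of all iNKT genes with exactly 2 peaks, 7.41% had both lower and 29.4% had at least 1. The first peak covered 270 nt of exon 2 of 3 (chromosome 15, 61987874 to 61988143, + strand), with a fold enrichment of 22.2 in the authors' deposited table. Its log2 fold change there was -4.58 (FDR 0.00117), a 23.9-fold difference, and 5.33% of all iNKT peaks had a value as low or lower. Only 59 nt farther along, the second peak ran over the junction into the last exon (61988203 to 61990165), with blocks of 76 and 820 nt, and was classed as 3' UTR. It was more strongly enriched (37.6) and changed less, with a log2 fold change of -1.84 (FDR 1.74e-06) in the authors' deposited table. Neighbouring stretches of the same mRNA therefore differed in size of change and not in sign, and the difference between them was not tested.

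The 2 DP peaks of Myc lay at opposite ends of the gene. A 61 nt peak in the 5' UTR (61985689 to 61985749), 348 nt from the start of the gene, had a fold enrichment of 11.2 and a log2 fold change of -0.485 (FDR 0.726) in the authors' deposited table. A 568 nt peak of the last exon (61989419 to 61989986) had a fold enrichment of 15.7 and a log2 fold change of -0.438 (FDR 0.627) there. It lay wholly within the last-exon peak of iNKT cells. The exon 2 peak had no DP counterpart, and the 5' UTR peak no iNKT counterpart, so these stretches were compared between genotypes in 1 cell type each.

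Max, the obligate partner, carried iNKT peaks of both signs within one 3' UTR. Passing peaks of both signs were present in 2.45% of all iNKT genes. The stronger peak spanned 361 nt (chromosome 12, 76937988 to 76938348, - strand), its 3' edge 719 nt short of the end of the gene, with a fold enrichment of 108, higher than that of 97% of iNKT peaks or level with it. By the authors' deposited table it had a log2 fold change of -4.0 (FDR 1.00e-14), a 16-fold difference and the smallest FDR among rows named after the members. On the 5' side of it, 149 nt away, a 121 nt peak (76938498 to 76938618) had a log2 fold change of 2.52 (FDR 1.05e-04) in the authors' deposited table. That higher peak was barely enriched over input, at 1.59, and 1.34% of iNKT peaks were as weak or weaker. Another peak nearer the 3' end (76937509 to 76937659, fold enrichment 2.93) had -1.65 and did not pass (FDR 0.587) in the authors' deposited table.

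In DP cells the same 3' UTR of Max held 3 peaks, and all their values were negative and small. The peak with the same 3' edge as the strong iNKT peak (76937988 to 76938258) had a fold enrichment of 7.39 and a log2 fold change of -0.198 (FDR 0.653) in the authors' deposited table. The peak that overlaps the higher iNKT peak (76938468 to 76938558) had 2.54 and -0.463 (FDR 0.647) for the same 2 quantities in the authors' deposited table. The last, in 3 blocks reaching upstream exons (76938678 to 76940014), had 2.04 and -0.514 (FDR 0.488) there.

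Mnt, a repressor that competes with Myc for Max, had its most enriched iNKT peak at the very start of the mRNA, and that peak did not pass. It covered 270 nt of the 5' UTR (chromosome 11, 74830920 to 74831189, + strand), with a fold enrichment of 166 and a log2 fold change of -0.532 (FDR 0.508) in the authors' deposited table. Of the 188 iNKT peaks with a fold enrichment at least as high, 44.1% were lower, as were 13.8% of all iNKT peaks classed as 5' UTR. Starting 208 nt beyond its end, the second peak (74831398 to 74836859) had 4 nt in exon 1 of 6 and 534 nt in the next block. This one was lower, with a log2 fold change of -2.8 (FDR 7.94e-09, fold enrichment 47) in the authors' deposited table.

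The first bases of the Mnt 5' UTR peak are shown because they are the only stretch of a member peak covered by a sequence used here, the RefSeq promoter window of Mnt on GRCm38.p6 (mm10 coordinates). The capital marks the adenosine, the base that m6A modifies.
Mnt, chr11:74830920-74830949, + strand: cgggggcggcggccgggggcAgcgcggctc
The window holds 54 of the 270 nt of the peak, of which 41 are C or G, and the base in capitals is the single adenosine among them. Neither GGACT nor GGACA nor GGACC, common forms of the m6A consensus, occurred in these 54 nt on either strand. On the strand shown this follows from the single adenosine, which stands after a c, so the search adds nothing there. All 3 forms contain GGAC. The last 54 nt of the 32851 RefSeq promoter windows held GGAC in 20% on the strand of the gene and 18.3% on the other. The remaining 216 nt of the peak were not searched.

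Both DP peaks of Mnt lay downstream of the start. The peak inside exon 2 (74836501 to 74836710, 210 nt) had a fold enrichment of 2.9 and a log2 fold change of 0.993 (FDR 0.485) in the authors' deposited table. It lay within the lower iNKT peak, so the DP value was positive where the iNKT value was negative. The other, classed as exon 3 (74837460 to 74837718), had 2.14 and -0.563 (FDR 0.596) in the authors' deposited table for the same quantities. No DP peak stood in the 5' UTR.

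**Figure D2:**
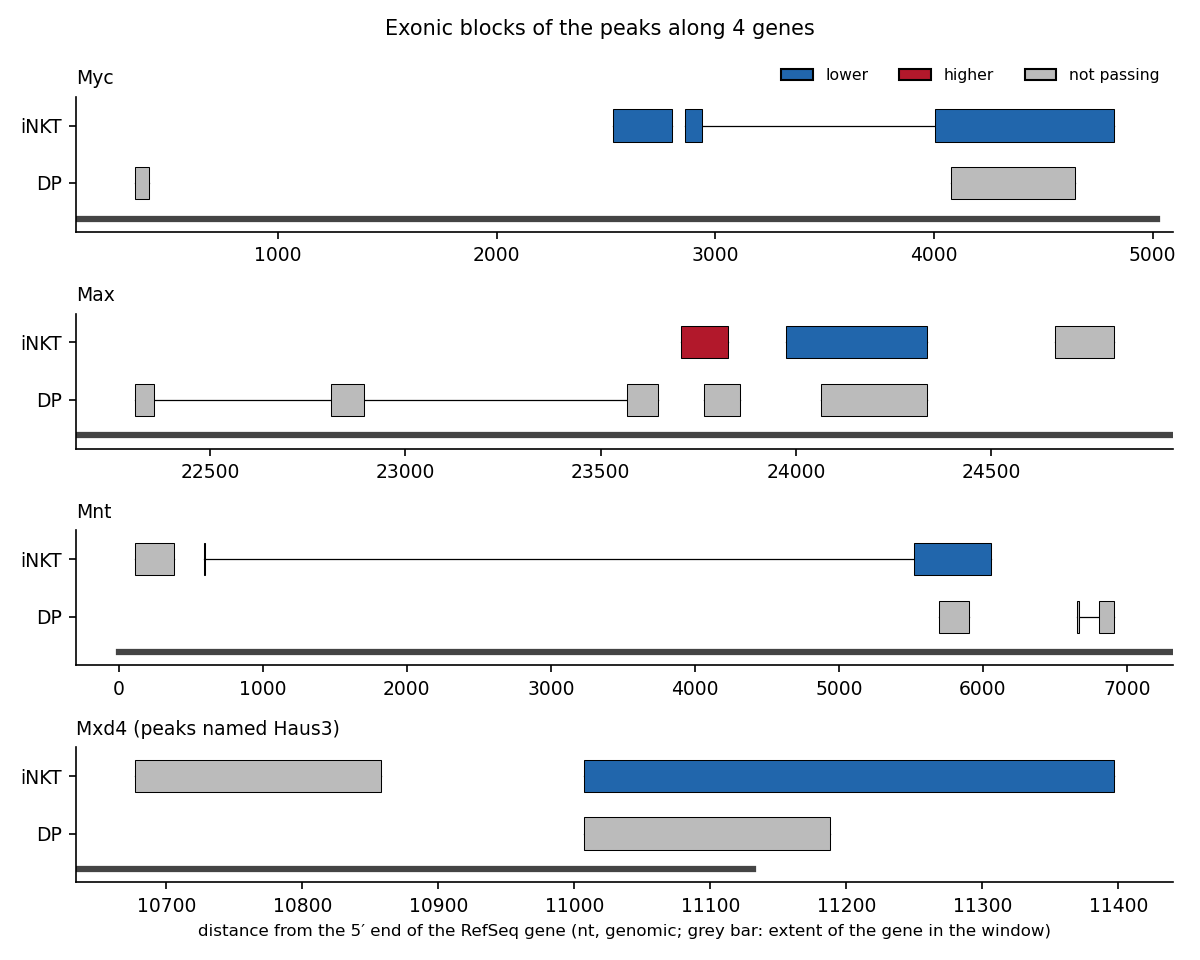
Exonic blocks of the peaks (boxes; thin lines join blocks of a peak) along Myc, Max, Mnt and Mxd4, placed by distance in nt from the 5' end of the RefSeq gene and coloured by the authors' call. The lower and higher peaks of Max lie 149 nt apart, and the enriched 5' UTR peak of Mnt, in grey, did not pass while the next one was lower.

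Mga, a large protein with both a T-box and a Max-binding domain, had the most peaks of the members and no passing one in either cell type. In DP cells 10 peaks covered 4833 exonic nt from the 5' UTR to the 3' UTR. By the authors' deposited table, their log2 fold changes ran from -0.50 to 1.22 with a median of 0.25, 8 of them positive. The most enriched lay in exon 3 of 25 (chromosome 2, 119916772 to 119917221, + strand), with a fold enrichment of 43.9, at or above that of 99.7% of DP peaks, and a log2 fold change of 0.0634 (FDR 0.676) in the authors' deposited table. The longest, 1229 nt and almost wholly in the last exon (119962211 to 119964907), had -0.43 (FDR 0.445), the smallest FDR of any DP member peak in the authors' deposited table.

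The 5 iNKT peaks of Mga covered 905 nt, and each shared bases with a DP peak. None passed, whereas 61.3% of iNKT genes with exactly 5 peaks had at least 1 lower peak. The largest differences were -2.82 in exon 18 (119947711 to 119947891, FDR 0.136) and -2.61 in the last exon (119964128 to 119964338, FDR 0.212) in the authors' deposited table. Exon 9 had -1.37 (FDR 0.667), and exon 15 and the other exon 18 peak had 0.959 and 0.652 (FDR 0.76 for each) in the authors' deposited table. Fold enrichments ran from 4.45 to 9.1, at percentiles 26.8 to 52.9 of the iNKT table.

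Mxd4, a repressor of the Mxd family linked to the end of proliferation, had peaks only by position. RefSeq places it at 34176580 to 34187710 on chromosome 5 (- strand). Haus3, a gene of the spindle protein complex augmin on the same strand, lies at 34153896 to 34169424, beyond the 3' end of Mxd4. An iNKT peak named Haus3 (34176314 to 34176703, 390 nt, - strand) shared 124 nt with the end of Mxd4 and none with Haus3. It had a fold enrichment of 30.6 and a log2 fold change of -3.37 (FDR 2.00e-15) in the authors' deposited table, a 10.3-fold difference. A second one (34176853 to 34177033), wholly inside Mxd4, had 4.81 and -0.0844 (FDR 0.76) in the authors' deposited table. In DP cells a 181 nt peak named Haus3 (34176523 to 34176703) with the same upstream edge had 1.81 and -0.302 (FDR 0.543) there. With these peaks added, 5 of 17 iNKT peaks were lower, in 4 genes. Farther downstream, 1 peak named Haus3 in each table overlapped no RefSeq gene and is not counted.

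Mycn, a paralogue of Myc, gave no peak within its own gene. Its 3 iNKT rows lay on the + strand, 23.9 to 236 kb past the 3' end of Mycn, which is on the - strand at 12936093 to 12941836 of chromosome 12. One coincided with the small nuclear RNA gene Gm25538 (12700039 to 12700145) and had a log2 fold change of -3.0 (FDR 0.659) in the authors' deposited table. Another overlapped the pseudogene Rpl36-ps3 (12912222 to 12912336) and had -0.585 (FDR 0.76) in the authors' deposited table. The third overlapped no RefSeq gene (12725770 to 12725980), with 5.17 (FDR 0.0759), the highest value of the set, in the authors' deposited table. Without these rows the set held 12 iNKT peaks, with the same 4 lower and 1 higher.

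Peaks at the same place in both tables allowed a direct look at the cell types. Of the member peaks, 9 pairs shared at least 1 exonic base on the same strand: 5 of Mga, 2 of Max and 1 each of Myc and Mnt. No DP peak of a pair passed, and 4 iNKT peaks did. Over all 5755 such pairs of the 2 tables, 2.09% of DP peaks and 41.5% of iNKT peaks passed. The iNKT value was the more negative in 7 member pairs, against 82% of all pairs, so both counts stood near the background. The difference in log2 fold change, iNKT minus DP, was -3.80 for the strong Max peak, -3.79 for Mnt and -1.40 for Myc in the authors' deposited table values. For Mga it was -1.84 in exon 9, 0.13 in exon 15, -0.57 and -3.00 in exon 18 and -2.18 in exon 25. It was 2.98 for the other Max peak. In 4 pairs the signs were opposite, as in 53.8% of all pairs. The difference between cell types could not be tested without values per library.

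**Figure D3:**
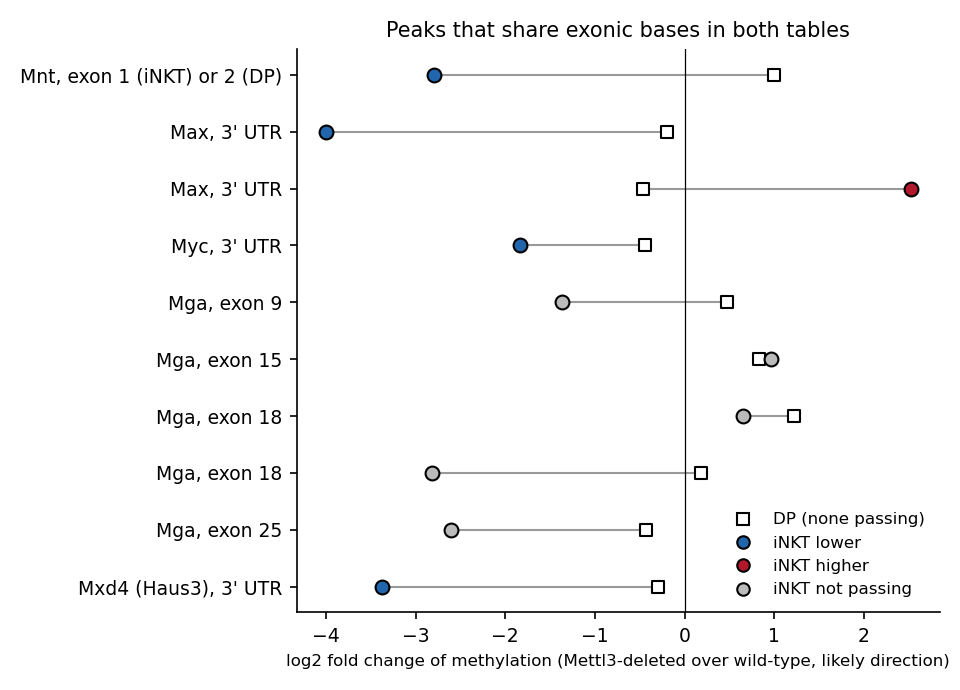
Log2 fold change of methylation (horizontal axis) of the 9 member pairs and the Haus3-named pair over Mxd4 that share exonic bases, squares for DP and circles for iNKT cells, coloured by the iNKT call. DP values lie between -0.46 and 1.22, and iNKT values between -4.0 and 2.52.

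The fold enrichment over input, given once per peak, also differed between the tables at these places. The strong Max peak stood at percentile 68.9 of fold enrichment for DP cells and 97 for iNKT cells. The Mnt peak stood at 26.3 and 90.3, and the Mga exon 9 peak at 35 and 36.3. In the other 6 pairs the percentile was lower in iNKT cells, as in 60.8% of all pairs. These were Mga exon 15 (90.6 in DP and 52.9 in iNKT cells), both exon 18 pairs (91.2 and 89.9 against 26.8 for each), exon 25 (78.3 and 49.4), the second Max peak (19.4 and 1.34) and the Myc pair (91.6 and 85.8). Percentiles were taken within each table, and no test of these differences was possible.

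Passing did not follow the size of change alone. The Myc last-exon peak passed at -1.84, while Mga peaks at -2.82 and -2.61 and a Mycn-named row at -3.0 did not in the authors' deposited table. The log10 p-value of the peak over input was -463 for the Myc peak and -31.3, -39.7 and -8.63 for the others in the authors' deposited table. The higher Max peak, at -5.11, was the exception among the peaks that passed. How far the strength of a peak sets its call was not tested.

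Other genes of the wider network were taken from lists. Beside the counts stand all genes of a table: 26.2% of iNKT genes had a lower peak and 9.64% a higher one, against 1.44% and 0.876% of DP genes. Genes had on average 1.85 iNKT peaks and 2.03 DP peaks, and lists with more peaks per gene had more chances to pass. Of iNKT genes with exactly 2 peaks, 29.4% had at least 1 lower peak, and of those with exactly 3 peaks, 43.6%.

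Of 7 other MAX and MLX network genes, 3 had iNKT peaks, with 0 lower and 2 higher. Mxd3, a repressor of the Mxd family expressed in dividing cells, had its only peak higher (4.31, FDR 0.00562, in an exon), and Mlxip, a partner of Mlx that responds to glucose metabolites, had 1 of 10 peaks higher (2.48, FDR 0.0457) in the authors' deposited table. The single iNKT peak of Mxi1, another Mxd repressor, showed -1.0 (FDR 0.76) in the authors' deposited table. In DP cells Mxi1 had a lower peak (-0.946, FDR 0.0186, fold enrichment 1.75) in the authors' deposited table, 1 of 2 listed genes with a peak.

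Corepressors of Mxd and Mnt proteins had lower iNKT peaks in 7 of 10 genes with a peak and higher ones in 2, with 3.4 peaks per gene and a median log2 fold change of -1.99. The nuclear receptor corepressor gene Ncor1 had lower peaks of -5.15 and -5.97, and Arid4a, which encodes a Sin3 complex subunit, of -3.87 and -2.06 in the authors' deposited table. Hdac1, a histone deacetylase gene, had -5.30 and the histone-binding gene Rbbp7 -3.14 in the authors' deposited table. The Sin3 subunit gene Suds3 had peaks of both signs, at 5.46 and -4.09 in the authors' deposited table. In DP cells 1 of 11 genes had a lower peak, Suds3 (-0.394, FDR 0.0107, authors' deposited table). Partners of Mga in its Polycomb complex had a lower iNKT peak in 1 of 5 genes, Hdac1 again, and in 0 of 10 DP genes, where 1 peak of 15 reached an unadjusted p of 0.05.

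Coactivators of Myc had lower iNKT peaks in 9 of 14 genes and higher ones in 4, with 3.21 peaks per gene. Cdk9 and Ccnt1, the kinase and cyclin of the elongation factor P-TEFb, had -6.15 and -2.55 in the authors' deposited table. Paf1, Ep300 and Trrap, a scaffold of acetyltransferase complexes, had peaks of both signs, with Trrap at -2.15 and 7.64 in the authors' deposited table. Zbtb17, which encodes the Myc partner Miz1, had -3.95 (FDR 0.00148) in the authors' deposited table. In DP cells 2 of 12 genes had a lower peak, Crebbp among them, and 1 a higher one, the elongation factor gene Supt5 (0.339, 5' UTR), by the authors' deposited table. Supt5 had a lower iNKT peak of -8.92 elsewhere, in the 3' UTR, in the authors' deposited table. Of the DP peaks of coactivators 11 of 35 reached an unadjusted p of 0.05, against 12.7% of all DP peaks, as did 6 of 37 for the corepressors and 2 of 10 for the other network genes.

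Genes that control the turnover of Myc protein had lower iNKT peaks in 10 of 14, with 2.36 peaks per gene. Counting only peaks within the named gene on its strand, the count was 8 of 13, since the passing peaks named Pim2 and Gsk3a lay outside those genes. Fbxw7, the ubiquitin ligase subunit that recognises phosphorylated Myc, had -3.96 and -3.44, and Huwe1, another ligase of Myc, -3.97 and -4.20 in the authors' deposited table. Gsk3b, a kinase that marks Myc for Fbxw7, had -4.26 and the phosphatase inhibitor gene Set -4.74 in the authors' deposited table. Pim1, a kinase gene, and Usp36, a nucleolar deubiquitinase gene, had peaks of both signs, with Pim1 at -1.79 (3' UTR) and 1.62 (5' UTR) by the authors' deposited table. In DP cells 0 of 17 genes had a lower peak and 1 a higher one, Huwe1 (0.652, FDR 0.0269, authors' deposited table), and 5 of the 33 peaks reached an unadjusted p of 0.05.

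Myc target genes had lower iNKT peaks in 14 of 31, with 1.84 peaks per gene, level with the whole table. Among these, Ncl had -3.88 and -1.53, Nolc1 -5.19, Ubtf -3.37, Ddx21 -4.44 and Fbl -3.37 in the authors' deposited table. Slc2a1, the glucose transporter Glut1, had -4.88 and the amino acid transporter chain Slc3a2 -3.46 in the authors' deposited table. The only higher peak was in Rcc1 (5.81, FDR 0.0126), a gene of the Ran cycle, in the authors' deposited table. None of 28 targets passed in DP cells, in either direction, and 2 of their 50 peaks reached an unadjusted p of 0.05.

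Among genes upstream of Myc in thymocytes, 6 of 13 had a lower iNKT peak and 3 a higher one, with 2.54 peaks per gene. The transcription factor gene Foxo1 had -5.24, Zbtb16 -8.43 and Lef1, a partner of beta-catenin, -3.97 in the authors' deposited table. Tcf7, a relative of Lef1, had 4.17 in a weakly enriched 5' UTR peak (1.78) in the authors' deposited table. Runx1 also had a higher peak, at 7.58 (FDR 1.58e-19, fold enrichment 3.15), in the authors' deposited table. Il7r had peaks of both signs, with 2.26 (fold enrichment 4.36) and -3.07 among them, in the authors' deposited table. Notch1, whose signal induces Myc in early thymocytes, had 3 of 8 named peaks lower, at -3.16, -3.17 and -3.71 in the authors' deposited table, and the one at -3.17 was on the strand opposite to the gene. None of 11 passed in DP cells, where 1 of 22 peaks reached an unadjusted p of 0.05. Of the m6A readers and stabilisers that act on Myc mRNA, 0 of 3 passed in iNKT cells, with 0 of 3 peaks at an unadjusted p of 0.05, and 0 of 4 in DP cells, with 1 of 5.

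**Figure D4:**
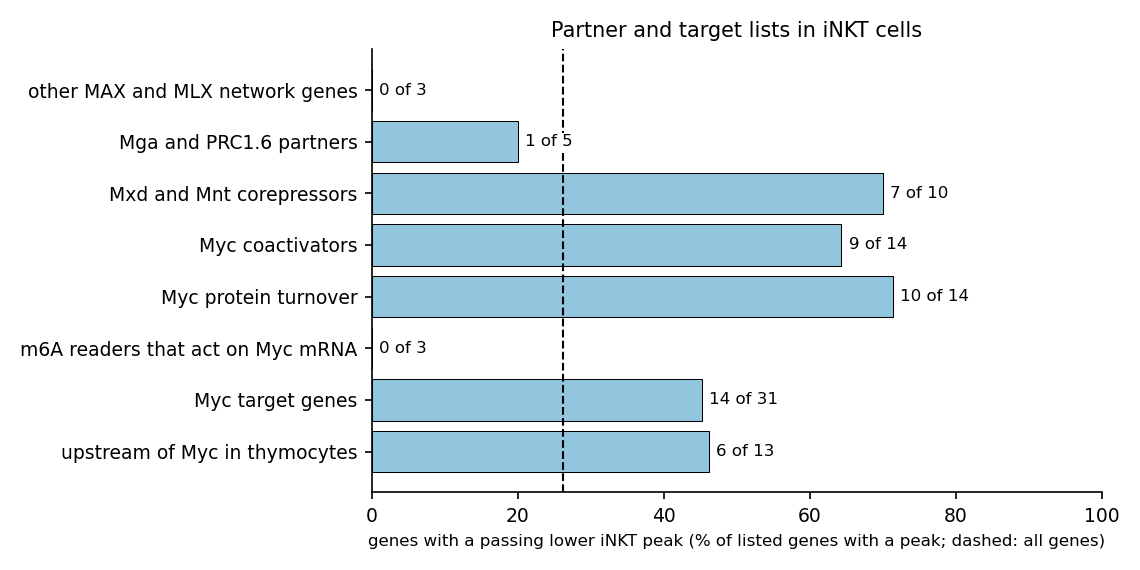
Share of listed genes with a passing lower iNKT peak, in % of the listed genes with any peak (bars, with the counts), for the 8 lists, beside the 26.2% of all iNKT genes (dashed line). Shares run from 0 of 3 to 10 of 14, with 14 of 31 for Myc target genes. The dashed line is not adjusted for the number of peaks per gene, which differs between lists.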

How the data were processed

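N6-methyladenosine (m6A) was measured in 20 libraries of 8 groups. The submitters' processing notes list the aligner STAR 2.6.0a, RSEM 1.3.0, HOMER 4.9.1, Trim Galore 0.6.5 and FastQC 0.11.5, with mm10. Per the file headers, the columns of the peak tables are those of the exomePeak package, a peak caller; neither its version nor any pooling of replicates is given in the sources used here. Per the file headers, the authors' deposited tables hold a p-value per peak, a fold enrichment as a linear ratio, a log2 fold change between genotypes, and log10 p-values and FDRs, treated as scores. Repeats of an interval with equal strand and blocks were dropped (5 DP and 24 iNKT rows). FDRs were computed from the deposited log10 scores. Peaks were paired by at least 1 shared exonic base. Gene positions came from RefSeq (GRCm38.p6), strands from its promoter table, which did not list Myc. No count model and no separate test was run, as there are no counts per library and depth is unknown; p-values may not take in variation between mice. Every member peak is named; listed genes were named by smallest FDR, up to 8 per list, and some are counted but not reported here by name. Members and lists were chosen with earlier results of these data known. Alternatives were other FDRs, a 2-fold minimum change, a fold enrichment of 2, all rows, peaks within the gene only (for the lists, chosen after seeing the data), the turned sign, and 50% overlap. Counting and matching were tested on simulated data. Scripts ran in Python 3.11.15 with pandas 2.3.3, numpy 2.4.6 and matplotlib 3.10.9.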

Additional observations from a re-analysis of the deposited data

How the results depend on the processing

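All DP member counts stayed at 0 under each alternative, and the 4 lower iNKT peaks in 3 genes stayed at 4 under other FDRs, a 2-fold minimum, a fold enrichment of 2, all rows and peaks within the gene only. With Haus3-named peaks over Mxd4 added, chosen after seeing the data, they became 5 in 4 genes. With the sign turned, 1 iNKT peak in 1 gene would be lower and 4 higher, and the share of all peaks called lower would be 5.84% in iNKT and 0.483% in DP cells. The higher iNKT count was 2 at an FDR of 0.1, where the Mycn-named row passed, and 0 at a fold enrichment of 2, which leaves out the Max peak. The DP share of lower peaks was 0.297% at an FDR of 0.01, 1.25% at 0.1 and 0.0743% with a 2-fold minimum. Pairs between tables numbered 9 at 50% overlap and with strand ignored. Counting listed genes by peaks within the gene only, also chosen after seeing the data, changed 1 count of genes with a passing peak, the turnover list in iNKT cells, from 10 to 8. No paired analysis was possible because the tables hold no values per library, and for the same reason replicates could not be left out. The depth behind each peak is unknown.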

Other observations

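Names by nearest gene affected the wider network too. Of the rows in the authors' deposited tables, 4 of 10 iNKT peaks and 3 of 7 DP peaks named Mlxip lay outside that gene, and 1 of 3 DP peaks named Mxi1 lay on the opposite strand. The passing peaks of these 2 genes lay within the gene on its strand. Among listed iNKT peaks that passed, those named Pim2 (its only peak) and Gsk3a, 1 of Hdac1 and 1 of Rrp9 lay outside the gene, and 2 of Lef1 and 1 of Notch1 lay on the strand opposite to it.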
